A study of Mus musculus with 117 samples.

Results

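Ubc9 is the single E2 enzyme that attaches the small protein SUMO to its targets, and the comparison described here asks whether reprogramming fibroblasts responded to its depletion differently after 7 days than after 4 days. The measure was the response at day 7 (D7 shUbc9 minus D7 shCtrl) minus the response at day 4 (D4 shUbc9 minus D4 shCtrl), on the log2 scale, for each gene of the RNA count table. It used 12 of the 28 RNA libraries and of the 117 samples in the series, namely all 3 libraries of each of these 4 groups. All 4 groups were mouse embryonic fibroblasts of stage E13.5 at passage 1 that expressed the factors Oct4, Klf4, Sox2 and Myc (OKSM), for 4 days (D4) or 7 days (D7). They carried either a control hairpin (shCtrl) or a hairpin against Ubc9 (shUbc9), so the controls carried OKSM as well. Each library was made from RNA of a whole culture, in which fewer cells of a type and less RNA per cell cannot be told apart. The labels do not say whether the 3 libraries of a group came from separate cultures or embryos, so the p-values measure the spread between these libraries alone.

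Fibroblasts that express OKSM pass through a transition from a mesenchymal to an epithelial form, in which genes of the matrix and of contraction are turned down and genes of cell junctions, keratins and polarity are turned on. Only later, and in a minority of cells, do the genes of the pluripotent network follow. SUMO is attached mainly to nuclear proteins, among them transcription factors and chromatin regulators, and is best known for holding transcription down.

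Levels are given as CPM, counts scaled by TMM to a common library size of 1 M, in the order of replicates 1, 2 and 3. The libraries held 19.8 to 56.6 M counts in genes (M for mega). Fibroblast markers were high in every library, with the summed level of 45 matrix and surface genes between 46400 and 107000 CPM. An unnamed gene of the table held 0.0315% to 1.8% of the gene counts of a library, the most in D7 shCtrl replicate 3, which also had the lowest scaling factor, 0.877, against up to 1.089 elsewhere.

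The responses of the 2 days differed in 2171 of the 17676 genes tested, 12.3% (edgeR quasi-likelihood test, Benjamini-Hochberg adjusted p under 0.05). In 1068 genes, 6.04%, the D7 response was the higher one, and in 1103 genes, 6.24%, it was the lower one. A difference of at least 2-fold was more often a higher response at D7, with 474 genes against 189. For the 2 responses themselves, which share no library, 4684 genes (26.5%) rose and 4152 (23.5%) fell at D4, and 5331 (30.2%) rose and 4757 (26.9%) fell at D7. The difference shares its libraries with both responses, so the next counts describe it and are not a second line of evidence.

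**Figure D1:**
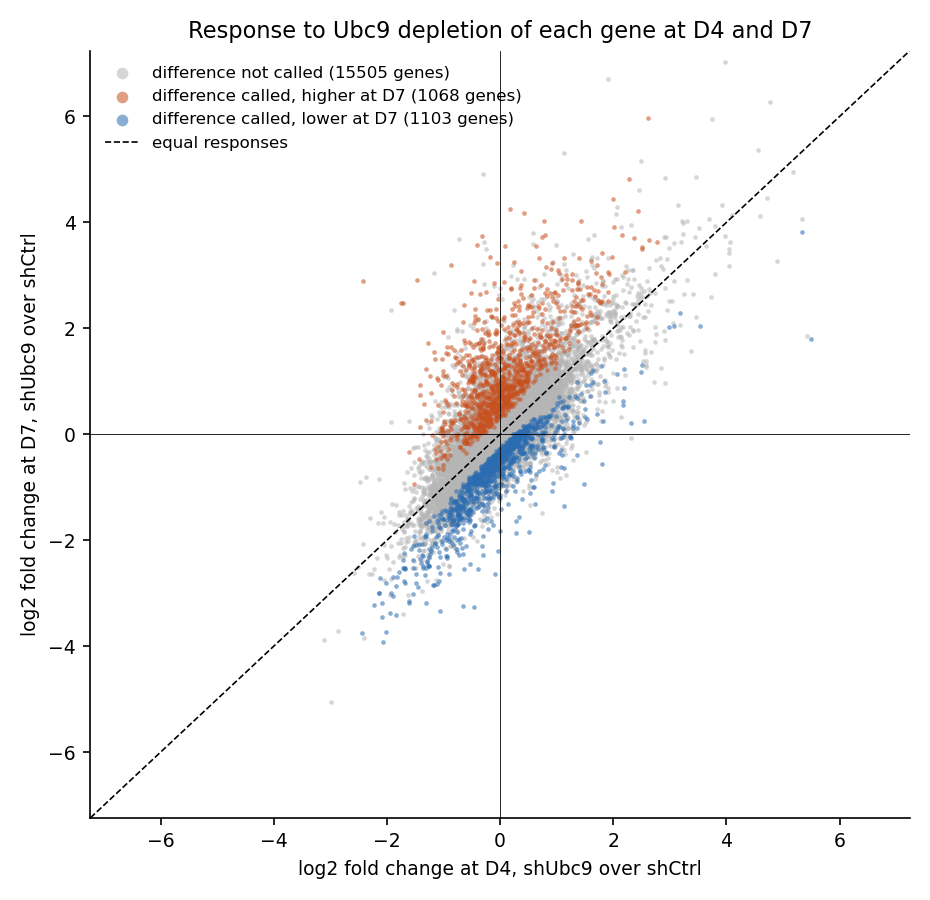
Log2 fold change of each of 17676 genes after Ubc9 depletion at D4 (horizontal axis) and at D7 (vertical axis), with the dashed line marking equal responses. Orange points are the 1068 genes whose D7 response was called higher and blue points the 1103 genes whose D7 response was called lower; the orange points reach farther from the line than the blue ones.

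Of the genes with a higher D7 response, 516 rose at D7 alone, 298 rose on both days, 135 fell at D4 alone, 97 fell at D4 and rose at D7, 18 fell on both days and 4 were called on neither day. Of those with a lower D7 response, 437 fell on both days, 319 fell at D7 alone, 197 rose at D4 alone, 78 rose at D4 and fell at D7, 69 rose on both days and 3 were called on neither day. In all 175 genes, 0.99% of those tested, were called in both responses with opposite signs and in the difference. Seen along the time axis instead, 548 of the genes with a higher D7 response rose from D4 to D7 in depleted cells with no change called in controls, and 195 fell in controls with no change called in depleted cells. Among genes with a lower D7 response, 416 fell in depleted cells alone and 394 rose in controls alone. Over all 17676 genes tested, 1883 rose and 1427 fell from D4 to D7 in controls. In depleted cells 2596 rose and 2383 fell. The time courses of the lists below are to be read beside these counts.

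**Figure D2:**
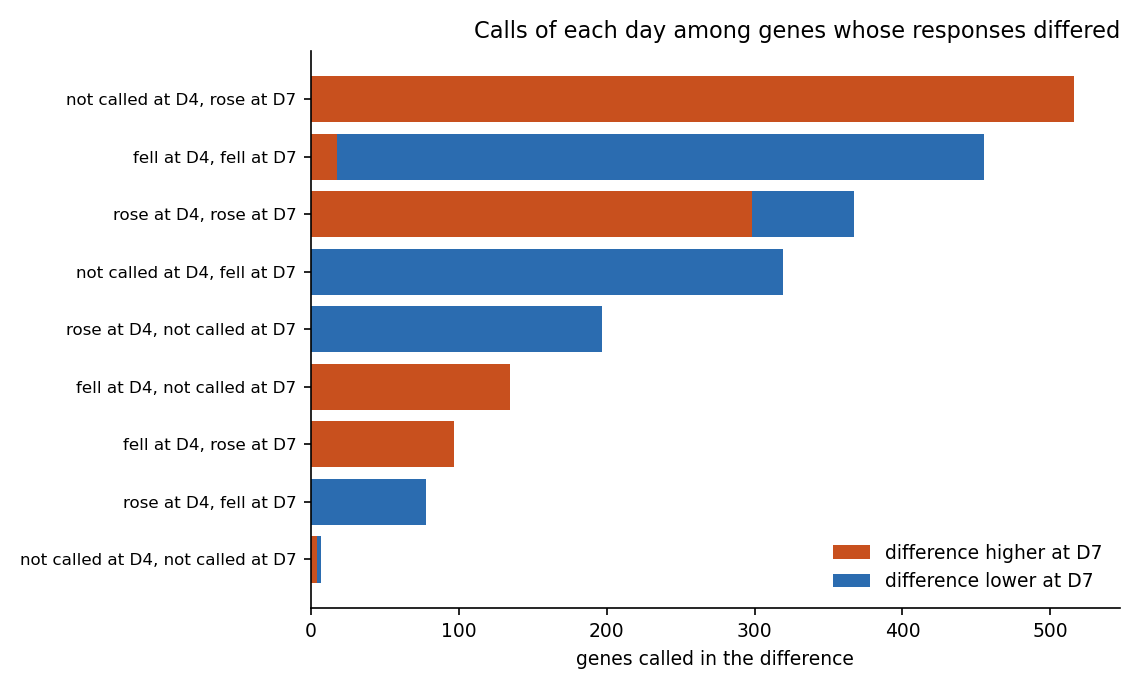
Genes called in the difference of responses, counted by their calls at each day, with the number of genes on the horizontal axis. Orange bars are genes whose D7 response was higher and blue bars those whose D7 response was lower; the longest bar holds the 516 genes that rose at D7 and were not called at D4.

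Several settings bear on these counts. With library sizes alone in place of TMM, 1810 genes were called, of which 72.9% had the higher response at D7, against 49.2% with TMM, and the median difference of all genes was 0.098 in place of -0.019. A fit of all 28 RNA libraries, whose spread is estimated over 10 groups, called 347 genes, 249 higher and 98 lower. Without D7 shCtrl replicate 1 the count was 1386. The genes with a lower D7 response, 1103 in all, numbered 648 without D4 shCtrl replicate 1, 609 without D4 shCtrl replicate 3, 576 without D7 shCtrl replicate 1 and 726 without D7 shUbc9 replicate 3. The 175 genes with opposite responses numbered 114 without D4 shCtrl replicate 3 and 276 without D7 shUbc9 replicate 1. Of the 2171 genes, 0 changed sign in any of the 20 alternative fits in which they were tested. These fits share all or most of the 12 libraries, so a change of sign was unlikely from the start.

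Epithelial genes formed the list with the highest median difference of the 40 lists. Of 47 tested, 33 had a higher response at D7 and 1 a lower one, against 6.04% and 6.24% of all genes, and the median difference was 1.14 against -0.02 for all genes. The median response of the list was 0.32 at D4, where 20 rose and 10 fell, and 1.74 at D7, where 43 rose and 1 fell. Every class in the list held members with a higher D7 response, from 7 of 10 transcription and splicing factors, 8 of 12 tight junction genes and 5 of 11 genes of adherens junctions and desmosomes to 6 of 6 polarity and traffic genes, 3 of 4 membrane proteases and inhibitors and 4 of 4 simple keratins. The summed level of the list was 777, 764 and 756 CPM in D4 shCtrl, 920, 893 and 916 in D4 shUbc9, 983, 1030 and 903 in D7 shCtrl and 1950, 2170 and 2170 in D7 shUbc9. The D7 shUbc9 libraries therefore stood apart from all others. In controls 28 members rose from D4 to D7 and in depleted cells 43 did, against 1883 and 2596 of all 17676 genes.

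**Figure D3:**
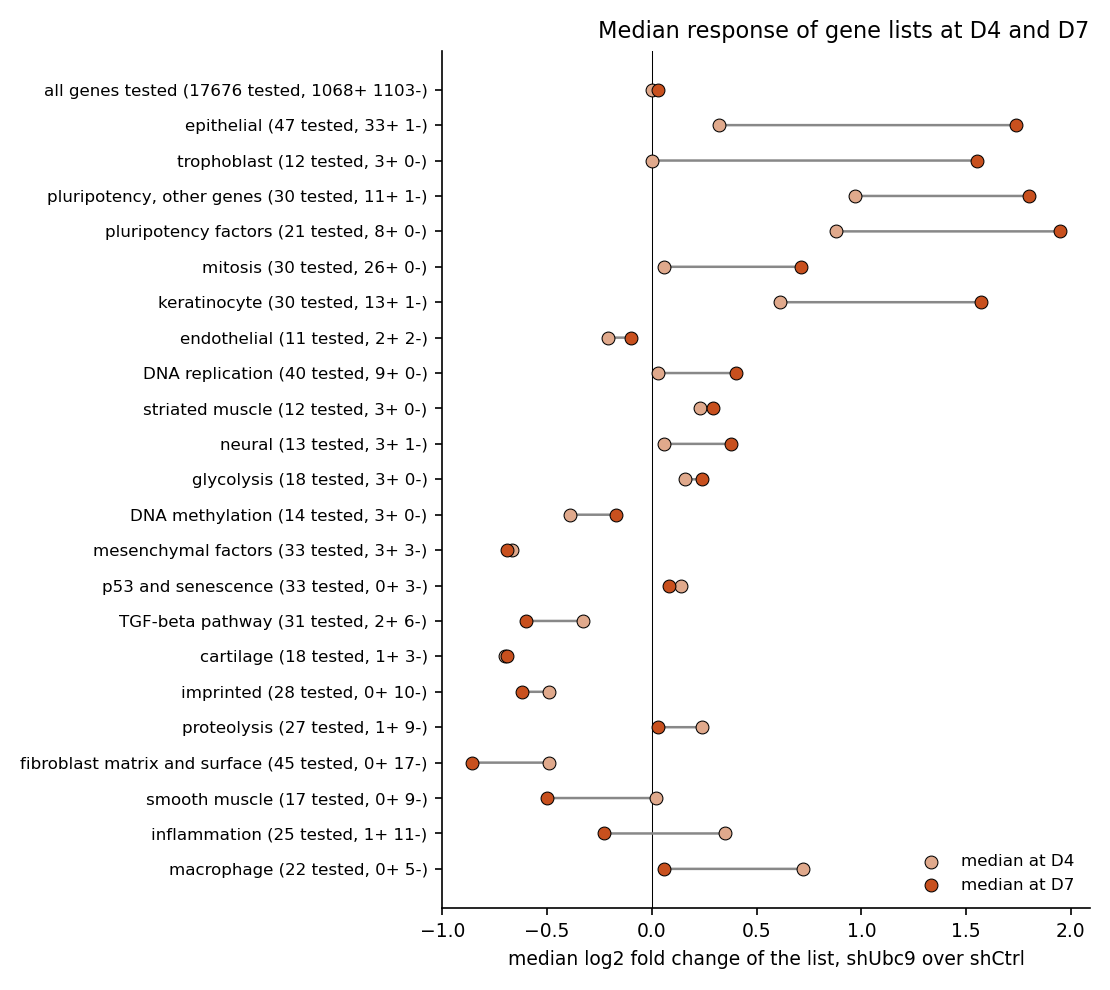
Median log2 fold change after Ubc9 depletion at D4 (pale points) and D7 (dark points) for the 22 gene lists with at least 3 members called in the difference, and for all genes tested; labels give the members tested and those called with a higher (+) or lower (-) response at D7. The median of the epithelial list goes from 0.32 to 1.74 and that of the trophoblast list from 0 to 1.55, while the inflammation list crosses 0 from 0.35 to -0.23.

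Some members of this list fell at D4 and rose at D7. Elf3, an ETS factor of epithelia, stood at 2.47, 3.18 and 2.32 CPM in D4 shCtrl and 1.08, 1.41 and 1.41 in D4 shUbc9. D7 shCtrl held 2.84, 3.35 and 2.77 CPM and D7 shUbc9 5.25, 6.67 and 5.18. Both pairs of groups were apart, with lower values after depletion at D4 and higher ones at D7, and the difference was 1.97 ± 0.24 (adjusted p = 0.00021), given here and below with its standard error on the log2 scale. Krt18, the type I keratin of simple epithelia, stood at 2.47, 2.81 and 2.54 CPM in D4 shCtrl and 1.66, 1.34 and 1.93 in D4 shUbc9. D7 shCtrl held 8.36, 11 and 5.54 CPM and D7 shUbc9 23.3, 24.5 and 29.1. It fell 1.61-fold at D4 and rose 3.03-fold at D7, a difference of 2.29 ± 0.30 (adjusted p = 0.000327). Its type II partner Krt8 stood at 77.1, 82.3 and 72.8 CPM in D4 shCtrl and 80.3, 75.2 and 94.8 in D4 shUbc9. D7 shCtrl held 125, 166 and 103 CPM and D7 shUbc9 442, 449 and 480. At D4 the Krt8 libraries overlapped and no change was called, while at D7 the groups were apart by 3.47-fold (difference 1.69 ± 0.19 (adjusted p = 0.000148)).

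Among junction genes, the desmosomal cadherin Dsg2 stood at 1.79, 1.58 and 1.98 CPM in D4 shCtrl and 1.1, 1.02 and 1.27 in D4 shUbc9. At D7 it stood at 7, 5.74 and 6.18 CPM in shCtrl and at 17.1 ± 3.63 (SD, n = 3) CPM in shUbc9. It turned from a fall of 1.58-fold to a rise of 2.71-fold (difference 2.1 ± 0.25 (adjusted p = 0.000181)), with all libraries of the depleted and control groups apart on both days. Cdh1, the E-cadherin of adherens junctions, stood at 29.5, 24.7 and 26.5 CPM in D4 shCtrl and 29.7, 29.1 and 30.7 in D4 shUbc9. D7 shCtrl held 34.4, 32.2 and 30 CPM and D7 shUbc9 75.4, 98.8 and 88.1. Its D4 groups overlapped, and the D7 rise of 2.71-fold gave a difference of 1.29 ± 0.14 (adjusted p = 0.000104). Rab25, which sorts vesicles to the apical membrane, was at or under 0.605 CPM in every D4 library, with 2.19, 1.98 and 1.85 CPM in D7 shCtrl and 13.8, 14.6 and 14.7 in D7 shUbc9. Its D7 groups were far apart (7.05-fold), whereas those of D4 overlapped, and the difference was 2.44 ± 0.26 (adjusted p = 0.000101). Cdh3, the P-cadherin, was the exception: it stood at 69, 62.6 and 64.7 CPM in D4 shCtrl and 24.9, 25.3 and 23.8 in D4 shUbc9. D7 shCtrl held 59.6, 51.9 and 55.5 CPM and D7 shUbc9 9.67, 11.5 and 9.72. It fell on both days, more at D7 (difference -1.03 ± 0.12 (adjusted p = 0.000129)), a call not made in the fit of all 28 libraries.

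Promoters are shown for Krt8, Krt18 and Rab25, which were all higher after depletion at D7. At D4 they differed, since Krt18 fell while Krt8 and Rab25 overlapped. The repressors of the ZEB and SNAIL families, which hold epithelial genes down in mesenchymal cells, read an E-box near gene starts. The sequences are the 200 bases before the first listed start in RefSeq, build GRCm38.p6, on the gene's strand. Capitals mark the E-box CAGGTG, on either strand, and the grainyhead motif AACCNGTT, on either strand. Krt8 lies at chr15:102004343-102004542, minus strand, Krt18 at chr15:102028016-102028215, plus strand, and Rab25 at chr3:88548280-88548479, minus strand.
Krt8: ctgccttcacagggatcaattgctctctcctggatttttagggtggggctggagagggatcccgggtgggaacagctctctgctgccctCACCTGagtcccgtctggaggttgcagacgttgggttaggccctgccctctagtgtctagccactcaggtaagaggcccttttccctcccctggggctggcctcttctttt
Krt18: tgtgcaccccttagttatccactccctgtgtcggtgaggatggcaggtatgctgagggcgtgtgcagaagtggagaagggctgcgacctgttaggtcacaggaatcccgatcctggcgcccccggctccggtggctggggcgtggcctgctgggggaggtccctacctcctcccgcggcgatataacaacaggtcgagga
Rab25: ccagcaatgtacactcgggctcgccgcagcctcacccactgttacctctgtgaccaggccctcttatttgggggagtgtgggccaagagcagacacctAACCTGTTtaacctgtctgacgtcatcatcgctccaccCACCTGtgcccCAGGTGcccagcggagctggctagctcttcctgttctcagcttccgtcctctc
The window of Krt8 held 1 E-box and that of Rab25 held 2 and 1 grainyhead motif, with no overlap between matches, while the letters of neither motif were found in the Krt18 window. Over the 250 bases before the start, the E-box was present in 17 of 27 epithelial genes with a promoter in the table (63%) and in 15.7% of the 12863 tested genes that had one. Among the members called higher it was present in 13 of 20 (65%). The grainyhead motif was present in 2 of 27, or 7.41%, against 1.65%. A match describes letters and no binding.

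Of 30 keratinocyte genes 13 had a higher response at D7 and 1 a lower one, against 6.04% and 6.24% of all genes (median difference 0.61), with a median response of 0.61 at D4 and 1.57 at D7. Krt14, the keratin of basal epidermis, stood at 78.5, 86.7 and 77.4 CPM in D4 shCtrl and 80.7, 75 and 88.3 in D4 shUbc9. D7 shCtrl held 111, 154 and 106 CPM and D7 shUbc9 376, 347 and 373. It overlapped between the D4 groups and was 2.95-fold higher after depletion at D7 (difference 1.55 ± 0.17 (adjusted p = 0.000104)). The kallikrein protease gene Klk10 stood at 24.3, 18.7 and 20.4 CPM in D4 shCtrl and 28, 28.2 and 28.7 in D4 shUbc9. D7 shCtrl held 26.2, 31 and 31 CPM and D7 shUbc9 91, 121 and 121. Its groups were apart on both days, and its response grew from 1.34-fold to 3.78-fold (1.49 ± 0.17 (adjusted p = 0.000139)). Tgm3, a transglutaminase of the cornified layer, rose 1.46-fold at D4 and 2.62-fold at D7 (difference 0.84 ± 0.13 (adjusted p = 0.00122), not called in the fit of all 28 libraries). Sbsn, a secreted protein of the suprabasal layer, went the other way: it stood at 35.1, 36.1 and 35.9 CPM in D4 shCtrl and 106, 101 and 120 in D4 shUbc9. D7 shCtrl held 54, 57.5 and 60.5 CPM and D7 shUbc9 134, 120 and 127. Its rise was smaller at D7 (-0.46 ± 0.10 (adjusted p = 0.0107)). The call was not kept without D4 shCtrl replicate 1 (adjusted p = 0.0553), with library sizes alone or with all 28 libraries. Of the defining basal markers, Krt5 reached 3.61 CPM, Krt15 0.857 CPM and Trp63 7.68 CPM in the highest library. Trp63 was lower after depletion at D7: D7 shCtrl held 5.71, 4.94 and 7.68 CPM and D7 shUbc9 3.28, 3.26 and 3.5. Krt15 overlapped at D7, while D4 shCtrl held 0.298, 0.208 and 0.267 CPM and D4 shUbc9 0.492, 0.504 and 0.857. Krt5 was apart on both days, with D7 shCtrl at 2.03, 1.81 and 3.23 CPM and D7 shUbc9 at 3.52, 3.26 and 3.61. Of the 10 basal genes in the list, 5 were called higher and 0 lower.

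Some of the largest differences were of genes outside the lists. Spink5, a protease inhibitor of the epidermis, stood at 0.596, 0.707 and 0.587 CPM in D4 shCtrl and 0.234, 0.453 and 0.276 in D4 shUbc9. D7 shCtrl held 1.59, 2.13 and 1.5 CPM and D7 shUbc9 5.06, 4.97 and 5.02. It fell at D4 and rose at D7, with a difference of 2.43 ± 0.31 (adjusted p = 0.00032). Aldh3b2, an aldehyde dehydrogenase gene, stood at 0.638, 0.79 and 0.721 CPM in D4 shCtrl and 0.398, 0.252 and 0.387 in D4 shUbc9. D7 shCtrl held 2.22, 2.78 and 2.54 CPM and D7 shUbc9 4.62, 5.04 and 6.05. It turned in the same way (2.18 ± 0.29 (adjusted p = 0.000372)). Klk1, another kallikrein, was under 1 CPM in all D4 libraries and stood at 2.29, 2.61 and 2.31 CPM in D7 shCtrl and 29.4, 29.8 and 26.1 in D7 shUbc9 (difference 2.93 ± 0.38 (adjusted p = 0.00032)). Ildr1, a receptor found at the corners of tight junctions, stood at 0.724, 0.541 and 0.534 CPM in D4 shCtrl and 0.375, 0.42 and 0.497 in D4 shUbc9. D7 shCtrl held 1.43, 1.75 and 1.1 CPM and D7 shUbc9 5.11, 9.12 and 6.55. The responses differed by 2.69 ± 0.39 (adjusted p = 0.000778). Crct1, a gene of the epidermal differentiation complex, rose at D7 with 0.462, 1.27 and 0.519 CPM in D7 shCtrl and 9.84, 12.4 and 15.2 in D7 shUbc9 (3.24 ± 0.77 (adjusted p = 0.0145)). Its call ended without D4 shCtrl replicate 2 (adjusted p = 0.0755) or D4 shCtrl replicate 3 (0.0717) and with all 28 libraries. Smyd1, a methyltransferase of muscle, was under 0.5 CPM in every D4 library and stood at 0.924, 0.977 and 0.693 CPM in D7 shCtrl and 4.7, 4.63 and 6.31 in D7 shUbc9 (2.58 ± 0.33 (adjusted p = 0.00032)).

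A further 5 genes were barely detected at D4 and high in D7 shUbc9 alone. They were chosen by smallest p among called genes with under 10 counts in a group. With so few counts at D4, they passed the count filter through D7, mainly through D7 shUbc9. Their separation at D7 follows in part from that choice and is no further evidence. Rdh16, a retinol dehydrogenase gene, had 9, 13 and 11 counts summed over D4 shCtrl, D4 shUbc9 and D7 shCtrl, and 279 in D7 shUbc9. Alox15, a lipoxygenase gene, had 6, 8, 29 and 448 counts in the same order, and the lectin gene Clec2i 5, 5, 30 and 523. The cytochrome P450 gene Cyp2b23 had 7, 12, 68 and 1606 counts and the kallikrein gene Klk6 6, 4, 39 and 475. Their D4 groups overlapped and their D7 groups did not. The fitted differences ran from 3.47 for Alox15 (adjusted p = 0.00881) to 4.09 for Rdh16 (adjusted p = 0.00171), but with so few counts at D4 they depend on how the fit treats low counts. The calls ended without D4 shCtrl replicate 2 (adjusted p = 0.214) for Alox15, D4 shCtrl replicate 2 (adjusted p = 0.132) for Clec2i, D4 shCtrl replicate 2 (adjusted p = 0.3) or D4 shCtrl replicate 3 (0.0546) for Cyp2b23 and D4 shCtrl replicate 1 (adjusted p = 0.0869), D4 shCtrl replicate 2 (0.126), D4 shUbc9 replicate 1 (0.0542) or D4 shUbc9 replicate 2 (0.0522) for Klk6, and, except for Rdh16 and Klk6, with all 28 libraries.

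**Figure D4:**
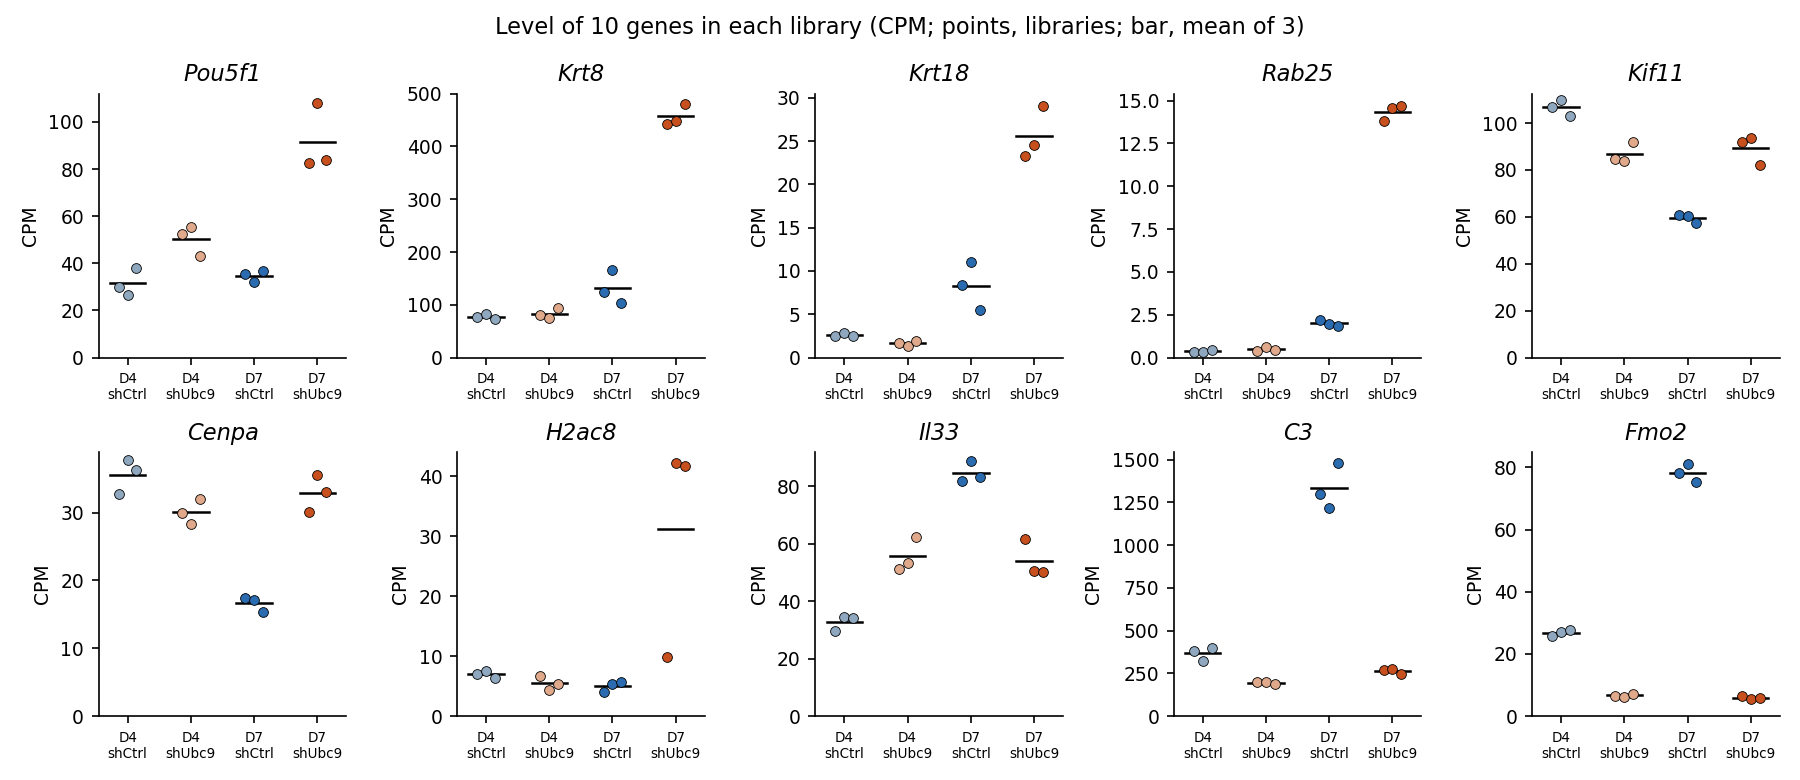
Level of 10 genes, in CPM from 0 on each vertical axis, in the 3 libraries of each group (points) with their mean (bar). Krt8, Krt18 and Rab25 are highest in D7 shUbc9, Kif11 and Cenpa are lowest in D7 shCtrl, H2ac8 is high in 2 of 3 D7 shUbc9 libraries, and C3 and Fmo2 are highest in D7 shCtrl.

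Most genes of mitosis differed. Of 30 tested, 26 had a higher response at D7 and 0 a lower one, against 6.04% and 6.24% of all genes, with a median difference of 0.64. At D4, 7 rose and 5 fell (median 0.06), and at D7 all 30 rose (median 0.71). From D4 to D7 all 30 fell in controls (median -0.9), whereas 12 fell and 0 rose in depleted cells (median -0.23). The summed level was 2750, 2780 and 2650 CPM in D4 shCtrl, 2780, 2790 and 2880 in D4 shUbc9, 1550, 1560 and 1490 in D7 shCtrl and 2490, 2480 and 2230 in D7 shUbc9. The D7 controls were thus the low group. Called members were 9 of 10 cyclins and kinases, 13 of 14 kinetochore and spindle genes and 4 of 6 genes of chromosome structure.

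Cenpa, the histone variant that marks the centromere, stood at 32.7, 37.8 and 36.3 CPM in D4 shCtrl and 29.9, 28.3 and 32 in D4 shUbc9. D7 shCtrl held 17.4, 17.1 and 15.4 CPM and D7 shUbc9 30.1, 35.6 and 33. It was lower after depletion at D4 and higher at D7, with no overlap on either day, and the difference was 1.23 ± 0.12 (adjusted p = 6.72e-05). Kif11, the motor that separates the spindle poles, stood at 107, 110 and 103 CPM in D4 shCtrl and 84.6, 83.7 and 92 in D4 shUbc9. D7 shCtrl held 60.9, 60.5 and 57.6 CPM and D7 shUbc9 92.1, 93.7 and 82.1. It turned in the same way (0.88 ± 0.0921 (adjusted p = 9.4e-05)). Nek2, a kinase of centrosome separation, stood at 33, 35.2 and 29.9 CPM in D4 shCtrl and 31.9, 32.5 and 30.9 in D4 shUbc9. D7 shCtrl held 16.3, 17.1 and 14.7 CPM and D7 shUbc9 30.1, 32.6 and 29.1. Its groups overlapped at D4 and were apart at D7 (0.97 ± 0.12 (adjusted p = 0.000177)). The call of Kif11 was not made in the fit of all 28 libraries, in which 10 members of the list were called.

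Promoters of these 3 genes are shown because genes of this class are known to be switched together through CCAAT boxes and a site called CHR near their starts. The windows are again 200 bases before the first listed RefSeq start on GRCm38.p6, and capitals mark CCAAT and the CHR letters TTTGAA, each on either strand. Kif11 lies at chr19:37376182-37376381, plus strand, Nek2 at chr1:191821273-191821472, plus strand, and Cenpa at chr5:30666686-30666885, plus strand.
Kif11: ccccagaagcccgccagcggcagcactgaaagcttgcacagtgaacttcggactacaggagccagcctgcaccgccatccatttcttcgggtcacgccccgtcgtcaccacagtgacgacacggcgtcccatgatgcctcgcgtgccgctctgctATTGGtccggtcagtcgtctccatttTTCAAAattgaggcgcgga
Nek2: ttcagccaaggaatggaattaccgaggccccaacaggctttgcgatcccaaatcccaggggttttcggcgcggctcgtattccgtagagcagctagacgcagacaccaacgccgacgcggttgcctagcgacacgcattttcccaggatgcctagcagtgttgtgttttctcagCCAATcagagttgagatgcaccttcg
Cenpa: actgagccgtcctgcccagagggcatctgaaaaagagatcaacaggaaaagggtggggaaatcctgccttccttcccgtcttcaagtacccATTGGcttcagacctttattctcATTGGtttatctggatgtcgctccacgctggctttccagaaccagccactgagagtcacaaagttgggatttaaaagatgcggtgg
Kif11 held a CCAAT box and a CHR, Nek2 1 CCAAT box and Cenpa 2 CCAAT boxes. Over 250 bases, CCAAT was present in 21 of 26 mitosis genes with a promoter in the table (80.8%) and in 36% of all tested genes that had one, and TTTGAA in 9 of 26 (34.6%) against 11.1%. These shares describe letters in the windows.

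Of 40 genes of DNA replication, 9 had a higher response at D7 and 0 a lower one, against 6.04% and 6.24% of all genes (median difference 0.26), with 26 falling from D4 to D7 in controls and 8 in depleted cells. The S-phase cyclin gene Ccna2 stood at 93.8, 104 and 90.9 CPM in D4 shCtrl and 118, 118 and 122 in D4 shUbc9. D7 shCtrl held 53, 55.4 and 50.3 CPM and D7 shUbc9 101, 115 and 102. It rose on both days, more at D7 (0.69 ± 0.0979 (adjusted p = 0.000666)). Tk1, thymidine kinase, stood at 96.5, 99 and 96.6 CPM in D4 shCtrl and 79.6, 84.2 and 80.8 in D4 shUbc9. D7 shCtrl held 62.3, 66.1 and 58.3 CPM and D7 shUbc9 87.7, 77.6 and 77. It turned from a fall to a rise (0.63 ± 0.0934 (adjusted p = 0.000822)). Rfc5, a subunit of the clamp loader, stood at 44.3, 47.1 and 41.4 CPM in D4 shCtrl and 46, 44 and 42.9 in D4 shUbc9. D7 shCtrl held 30.1, 31.8 and 27.2 CPM and D7 shUbc9 42.5, 45.2 and 42.4. There was overlap at D4 alone (0.54 ± 0.10 (adjusted p = 0.00431)). These 3 calls were not made with all 28 libraries, and the count of members was 15 without D7 shCtrl replicate 2.

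Histone genes gave 3 of the 10 largest rises, so the whole family was looked at after its values had been seen, as a description. Of 62 genes of the H1, H2A, H2B, H3 and H4 families tested, 52 had a higher response at D7 and 0 a lower one, against 6.04% and 6.24% of all genes, with a median difference of 1.32. At D4, 2 rose and 1 fell, and at D7, 58 rose, against 26.5% and 23.5% of all genes that rose and fell at D4 and 30.2% that rose at D7. In depleted cells 56 rose from D4 to D7 and 0 fell (median 0.85), while in controls 19 fell and 2 rose (median -0.39). The called shares were 13 of 15 H2A genes, 13 of 16 H2B genes, 10 of 12 H3 genes, 10 of 11 H4 genes and 6 of 8 H1 genes.

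H2ac8, which encodes an H2A protein, stood at 7.02, 7.53 and 6.33 CPM in D4 shCtrl and 6.73, 4.28 and 5.33 in D4 shUbc9. D7 shCtrl held 4.09, 5.36 and 5.71 CPM and D7 shUbc9 9.78, 42.1 and 41.6. The D7 groups were apart, but D7 shUbc9 replicate 1 was much nearer to the controls than replicates 2 and 3. Its difference was 3.01 ± 0.59 (adjusted p = 0.00486). H2ac12 stood at 2.17, 2.52 and 1.76 CPM in D4 shCtrl and 2.09, 1.23 and 1.46 in D4 shUbc9. D7 shCtrl held 1.29, 1.3 and 1.44 CPM and D7 shUbc9 3.63, 12.1 and 14. H2ac13 stood at 12.6, 9.87 and 8.89 CPM in D4 shCtrl and 9.72, 6.13 and 7.93 in D4 shUbc9. D7 shCtrl held 6.63, 7.52 and 8.95 CPM and D7 shUbc9 12.6, 45.8 and 44.4. In both, replicate 1 was again the lowest of D7 shUbc9, and the differences were 3.35 ± 0.60 (adjusted p = 0.00275) and 2.57 ± 0.53 (adjusted p = 0.00651). D7 shUbc9 replicate 1 was the lowest of its group in 55 of the 62 histone genes, and it was still above every D7 shCtrl library in 57. Without it 56 of the 62 had a higher response. Histone genes are near-identical copies, and reads could have been divided between them in counting, so single members are uncertain. Scand1, a SCAN domain gene and another of the largest rises, showed the same split, with 7.09, 7.99 and 7.5 CPM in D7 shCtrl and 9.26, 65.9 and 69.7 in D7 shUbc9, and its call (2.94 ± 0.77 (adjusted p = 0.0241)) ended without D4 shCtrl replicate 2 (adjusted p = 0.0612), D4 shUbc9 replicate 2 (0.0591), D7 shCtrl replicate 1 (0.0572), D7 shUbc9 replicate 2 (0.0544) or D7 shUbc9 replicate 3 (0.0661). The Scand1 call also ended with replicate number as a block in the fit (adjusted p = 0.0713) and with robust dispersion (0.0706).

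Of 21 transcription factors of the pluripotent state that were tested, 8 had a higher response at D7 and 0 a lower one, against 6.04% and 6.24% of all genes (median difference 0.83), and 19 rose from D4 to D7 in depleted cells against 8 in controls. The defining markers were at low levels: Nanog reached 11.5 CPM, Sall4 9.9 CPM, Zfp42 5.78 CPM and Esrrb 5.55 CPM in the highest of the 12 libraries. Nanog stood at 0.34, 0.541 and 0.32 CPM in D4 shCtrl and 0.609, 0.806 and 1.13 in D4 shUbc9. D7 shCtrl held 1.2, 2.81 and 1.04 CPM and D7 shUbc9 8.99, 11.5 and 9.22. Esrrb stood at 0.0426, 0.0624 and 0.107 CPM in D4 shCtrl and 0.0469, 0.806 and 0.829 in D4 shUbc9. D7 shCtrl held 1.36, 1.75 and 0.289 CPM and D7 shUbc9 3.52, 5.4 and 5.55. Sall4 stood at 0.17, 0.166 and 0.107 CPM in D4 shCtrl and 0.469, 0.823 and 1.13 in D4 shUbc9. D7 shCtrl held 1.64, 1.21 and 0.808 CPM and D7 shUbc9 5.63, 9.9 and 8.15. Nanog and Sall4 were apart on both days, and Esrrb and Zfp42 overlapped at D4 alone. Esrrb was nevertheless above every D4 control in D4 shUbc9 replicates 2 and 3. Overlap is no test of the difference. The 3 members of smallest p in that test follow, and none is a defining marker. Mybl2, a factor also of the cell cycle, stood at 22.5, 22.3 and 20.8 CPM in D4 shCtrl and 22.9, 23.2 and 22.3 in D4 shUbc9. D7 shCtrl held 16.9, 15.9 and 15.3 CPM and D7 shUbc9 32.3, 40.7 and 34.3. There was overlap at D4 and 2.23-fold more after depletion at D7 (1.09 ± 0.12 (adjusted p = 0.00014)). Sall1, a zinc finger factor, stood at 3.06, 2.66 and 3.15 CPM in D4 shCtrl and 3, 3.04 and 2.57 in D4 shUbc9. D7 shCtrl held 2.89, 2.43 and 3.06 CPM and D7 shUbc9 6.61, 11.3 and 8.22. The responses differed by 1.68 ± 0.26 (adjusted p = 0.00113). Prdm1, a repressor needed to form germ cells, stood at 1.66, 1.43 and 1.58 CPM in D4 shCtrl and 1.85, 2.18 and 2.1 in D4 shUbc9. D7 shCtrl held 1.41, 1.1 and 1.79 CPM and D7 shUbc9 5.41, 6.54 and 5.83. Its groups were apart on both days, and the response was called at D7 alone (1.69 ± 0.23 (adjusted p = 0.000467), not called with all 28 libraries).

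Of 30 other genes of pluripotent cells, 11 had a higher and 1 a lower response at D7, against 6.04% and 6.24% of all genes. The ligand gene Gdf3 stood at 1.02, 1.14 and 0.961 CPM in D4 shCtrl and 1.9, 2.13 and 2.24 in D4 shUbc9. D7 shCtrl held 4.18, 3.52 and 3.12 CPM and D7 shUbc9 19.4, 22.6 and 19.9. Its response grew from 1.99-fold to 5.61-fold (1.5 ± 0.20 (adjusted p = 0.000339), not called with all 28 libraries). Lefty2, which encodes an antagonist of Nodal, stood at 0.128, 0.291 and 0.16 CPM in D4 shCtrl and 0.398, 0.588 and 0.746 in D4 shUbc9. D7 shCtrl held 0.901, 0.918 and 0.75 CPM and D7 shUbc9 10.8, 17.3 and 14.9. It rose on both days, with a difference of 2.59 ± 0.51 (adjusted p = 0.00515). That call did not survive without D4 shCtrl replicate 2 (adjusted p = 0.0826) or with all 28 libraries. Dnmt3b, a DNA methyltransferase that sets new marks, stood at 6.21, 5.09 and 4.73 CPM in D4 shCtrl and 3.7, 4.23 and 3.37 in D4 shUbc9. D7 shCtrl held 5.04, 6.42 and 5.54 CPM and D7 shUbc9 9.67, 11.7 and 12.2. It fell at D4 and rose at D7 with no overlap (1.47 ± 0.20 (adjusted p = 0.000476)). Icam1, an adhesion molecule counted here because its surface level is used to sort reprogramming cells, was the lower member: it rose 1.24-fold at D4 and fell 1.25-fold at D7 (-0.64 ± 0.0952 (adjusted p = 0.000828), not called with all 28 libraries). The maintenance methyltransferase gene Dnmt1 and its partner Uhrf1 also had higher responses at D7, 0.36 ± 0.0852 (adjusted p = 0.015) and 0.56 ± 0.10 (adjusted p = 0.00366), neither of them called with all 28 libraries. Dnmt1 fell at D4 alone and Uhrf1 rose at D7 alone. The Dnmt1 call was also lost with no filter on low counts (adjusted p = 0.0615).

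Of the 4 factors of the cassette, Pou5f1 alone was called in the difference, and the counts of these factors may include transcripts of the cassette, which cannot be told apart from those of the cell's own genes. Pou5f1, which encodes Oct4, stood at 30, 26.4 and 38.1 CPM in D4 shCtrl and 52.3, 55.6 and 43 in D4 shUbc9. D7 shCtrl held 35.4, 32 and 36.8 CPM and D7 shUbc9 82.5, 108 and 83.9. It rose on both days, 1.6-fold and 2.63-fold, with a difference of 0.72 ± 0.20 (adjusted p = 0.0325). The call ended without D4 shCtrl replicate 3 (adjusted p = 0.0525), D4 shUbc9 replicate 1 (0.0571), D4 shUbc9 replicate 3 (0.0699) or D7 shUbc9 replicate 2 (0.0759), and with all 28 libraries. It also ended with replicate number as a block in the fit (adjusted p = 0.0718). Sox2 stood at 28.6, 18.9 and 28.5 CPM in D4 shCtrl and 36.7, 28.6 and 27.3 in D4 shUbc9. D7 shCtrl held 23.2, 19.8 and 29 CPM and D7 shUbc9 21.8, 61.2 and 44. Its groups overlapped on both days (0.54, adjusted p = 0.453). Klf4 differed by -0.31 (95% interval -0.89 to 0.27, adjusted p = 0.514) and Myc by -0.07 (-0.66 to 0.53, adjusted p = 0.917). In D7 shUbc9, replicate 2 held the highest level of all 4 factors, with Klf4 at 60.8, 120 and 82.6 CPM and Myc at 54.9, 96.1 and 64.4 CPM.

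Of 45 genes of the fibroblast matrix and surface, 17 had a lower response at D7 and 0 a higher one, against 6.24% and 6.04% of all genes (median difference -0.41), and 32 fell at D4 and 39 at D7. In controls 18 members rose from D4 to D7 and 0 fell, while in depleted cells 2 rose and 11 fell. The summed level was 85200, 65200 and 77400 CPM in D4 shCtrl, 53600, 50100 and 50200 in D4 shUbc9, 87100, 84500 and 107000 in D7 shCtrl and 49600, 53200 and 46400 in D7 shUbc9. Crosslinking enzymes were called in 4 of 5 cases and fibrillar collagens in 2 of 10. Col14a1, a collagen of fibril surfaces, stood at 414, 389 and 434 CPM in D4 shCtrl and 180, 186 and 162 in D4 shUbc9. D7 shCtrl held 543, 507 and 542 CPM and D7 shUbc9 121, 122 and 102. Loxl2, which crosslinks collagen, stood at 797, 684 and 736 CPM in D4 shCtrl and 472, 459 and 415 in D4 shUbc9. D7 shCtrl held 909, 801 and 975 CPM and D7 shUbc9 313, 311 and 305. In both genes the groups were apart on both days, and the differences were -0.98 ± 0.11 (adjusted p = 0.000162) and -0.81 ± 0.12 (adjusted p = 0.000808). P4ha2, a collagen prolyl hydroxylase subunit, stood at 99.8, 105 and 107 CPM in D4 shCtrl and 102, 95.4 and 97.8 in D4 shUbc9. D7 shCtrl held 164, 160 and 148 CPM and D7 shUbc9 102, 98.5 and 94.7. There was overlap at D4 and a fall at D7 (-0.6 ± 0.0831 (adjusted p = 0.000574)). In the edgeR fit of all 28 libraries 0 members were called, against 26 lower and 1 higher at an unadjusted p under 0.05 and 23 lower by the DESeq2 test, both with the 12 libraries.

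Of 17 genes of smooth muscle, 14 contractile genes and 3 coactivators, 9 had a lower response at D7 and 0 a higher one, against 6.24% and 6.04% of all genes. All 9 were contractile genes. The median difference of the list was -0.56, from a median of 0.02 at D4 to -0.5 at D7. The count was 5 without D4 shUbc9 replicate 1 and also 5 without D7 shCtrl replicate 1. Myh11, the smooth muscle myosin heavy chain, stood at 20.7, 20.9 and 15.2 CPM in D4 shCtrl and 11.3, 13.2 and 9.84 in D4 shUbc9. D7 shCtrl held 31.7, 20.7 and 26.3 CPM and D7 shUbc9 6.18, 4.84 and 5.26. The responses differed by -1.56 ± 0.24 (adjusted p = 0.00117). Tagln, an actin-binding protein, stood at 67.2, 62.8 and 53.8 CPM in D4 shCtrl and 69.9, 66.7 and 77.6 in D4 shUbc9. D7 shCtrl held 94.7, 85.8 and 106 CPM and D7 shUbc9 67, 50.1 and 60.4. There was overlap at D4 and no overlap at D7 (-0.91 ± 0.16 (adjusted p = 0.00274)). Myl9, a myosin light chain, fell at D7 alone, from 174, 152 and 172 to 98.7, 80.8 and 94.3 CPM (-0.76 ± 0.15 (adjusted p = 0.00499)). With all 28 libraries, Tagln and Myl9 were not called.

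In the TGF-beta pathway, which sustains both programs, 6 of 31 genes had a lower and 2 a higher response at D7, against 6.24% and 6.04% of all genes (median difference -0.15, or -0.03 with library sizes alone). The receptors held 4 of the 6. Without D7 shUbc9 replicate 1, 4 genes had a higher response. The receptor gene Tgfbr1 rose slightly at D4 and fell at D7, -0.47 ± 0.0809 (adjusted p = 0.0021), and the ligand gene Tgfb2 fell 1.7-fold at D7 (-0.6 ± 0.099 (adjusted p = 0.00163)). The target Id1, an inhibitor of helix-loop-helix factors, and Skil, a corepressor of SMAD proteins, had higher responses at D7, 0.91 ± 0.19 (adjusted p = 0.00715) and 0.33 ± 0.0779 (adjusted p = 0.0148). None of these 4 genes was called with all 28 libraries, and Skil was also lost with no filter on low counts.

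The transcription factors of mesenchyme had 3 higher and 3 lower responses among 33, against 6.04% and 6.24% of all genes, with a median difference of -0.03 against -0.02 for all genes. The transition factor Zeb2 stood at 161, 139 and 156 CPM in D4 shCtrl and 123, 126 and 125 in D4 shUbc9. D7 shCtrl held 193, 175 and 206 CPM and D7 shUbc9 108, 101 and 99.9. It fell on both days, more at D7 (-0.61 ± 0.10 (adjusted p = 0.00178)). Its relative Zeb1 differed by -0.36 ± 0.10 (adjusted p = 0.0405), a call lost in 10 of the 12 fits that left out 1 library, namely without D4 shCtrl replicate 1 (adjusted p = 0.0686), D4 shCtrl replicate 2 (0.0959), D4 shCtrl replicate 3 (0.0747), D4 shUbc9 replicate 1 (0.0513), D4 shUbc9 replicate 2 (0.0886), D4 shUbc9 replicate 3 (0.0617), D7 shCtrl replicate 1 (0.103), D7 shCtrl replicate 3 (0.11), D7 shUbc9 replicate 2 (0.0841) or D7 shUbc9 replicate 3 (0.104). Ebf1, a factor of stromal cells, fell 1.85-fold and 2.65-fold (-0.52 ± 0.0966 (adjusted p = 0.00363)). Foxd1 stood at 4.72, 5.13 and 3.92 CPM in D4 shCtrl and 4.41, 4.1 and 4.64 in D4 shUbc9. D7 shCtrl held 2.36, 2.25 and 1.79 CPM and D7 shUbc9 5.22, 16.4 and 11.9. It rose at D7 alone (2.43 ± 0.45 (adjusted p = 0.00317)). Twist2 (1.11 ± 0.27 (adjusted p = 0.0175)) and Msx1 (1.35 ± 0.37 (adjusted p = 0.0301)) showed the split seen in the histone genes, with D7 shUbc9 at 24.5, 46.3 and 49.2 CPM for Twist2 and at 3.74, 8.63 and 8.33 CPM for Msx1. Twist2 ended without D7 shUbc9 replicate 3 (adjusted p = 0.0513), and Msx1 without D4 shCtrl replicate 1 (adjusted p = 0.0617), D4 shCtrl replicate 3 (0.0521), D4 shUbc9 replicate 2 (0.0726), D4 shUbc9 replicate 3 (0.0627), D7 shCtrl replicate 1 (0.0668), D7 shCtrl replicate 3 (0.0503), D7 shUbc9 replicate 2 (0.0712) or D7 shUbc9 replicate 3 (0.0836). Without D7 shUbc9 replicate 1, 10 of the 33 factors had a higher response at D7, and without D7 shUbc9 replicate 3, 1 did. Zeb1, Zeb2, Ebf1 and Twist2 were not called with all 28 libraries. With replicate number as a block in the fit, Zeb1 (adjusted p = 0.0603) and Msx1 (0.0688) were not called. Zeb1 was also lost with library sizes alone (adjusted p = 0.153) and with a minimum count of 50 (0.0524).

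**Figure D5:**
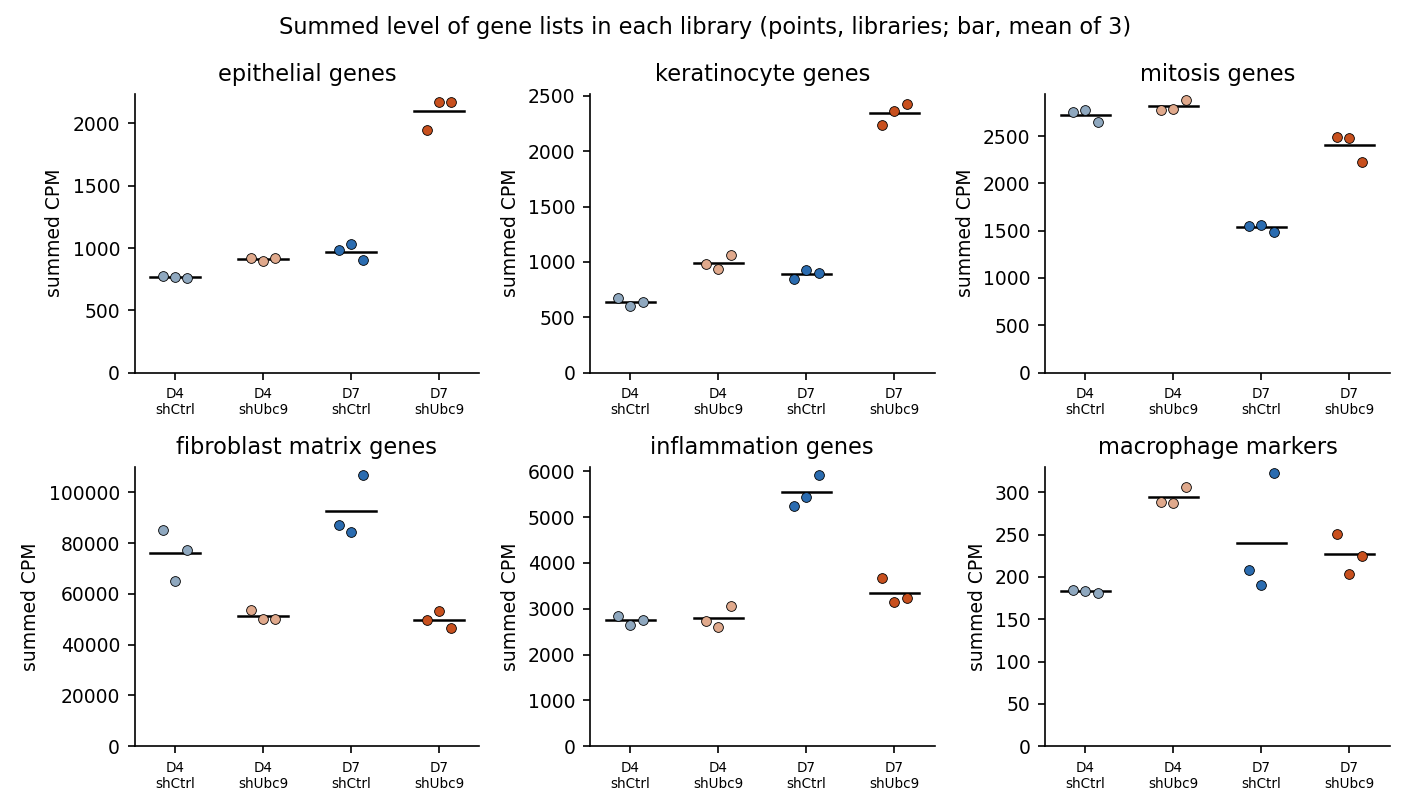
Summed level of 6 gene lists, in CPM from 0 on each vertical axis, in the 3 libraries of each group (points) with their mean (bar). Epithelial and keratinocyte genes are highest in D7 shUbc9, mitosis genes are lowest in D7 shCtrl, inflammation genes are highest in D7 shCtrl, and macrophage markers spread from 190 to 323 CPM within D7 shCtrl.

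Of 25 inflammatory genes tested, 11 had a lower response at D7 and 1 a higher one, against 6.24% and 6.04% of all genes (median difference -0.57), with 14 rising and 8 falling at D4 and 5 rising and 12 falling at D7. In controls 19 rose from D4 to D7 and 1 fell, and in depleted cells 9 rose and 3 fell. The alarm cytokine gene Il33 stood at 29.7, 34.6 and 34 CPM in D4 shCtrl and 51.3, 53.2 and 62.5 in D4 shUbc9. D7 shCtrl held 82, 89 and 83.4 CPM and D7 shUbc9 61.6, 50.5 and 50. It rose at D4 and fell at D7 with no overlap (-1.41 ± 0.14 (adjusted p = 6.55e-05)). Lcn2, a secreted protein that binds iron carriers of bacteria, stood at 14.1, 14.8 and 16.4 CPM in D4 shCtrl and 22.8, 21.4 and 29.1 in D4 shUbc9. D7 shCtrl held 69.7, 77.3 and 72.2 CPM and D7 shUbc9 50.7, 41.7 and 43.7. It turned in the same order (-1.38 ± 0.16 (adjusted p = 0.000161)). The complement gene C3 stood at 381, 325 and 400 CPM in D4 shCtrl and 197, 197 and 185 in D4 shUbc9. D7 shCtrl held 1300, 1220 and 1480 CPM and D7 shUbc9 271, 276 and 244. It fell on both days, farther at D7 (-1.4 ± 0.13 (adjusted p = 4.93e-05)). From D4 to D7 its level rose by 1.85 on the log2 scale in controls and by 0.45 in depleted cells. Tslp, an epithelial cytokine, was the higher member, with 1.43, 1.36 and 0.981 CPM in D7 shCtrl and 5.9, 4.23 and 5.44 in D7 shUbc9 (1.35 ± 0.29 (adjusted p = 0.00963)), lost without D4 shCtrl replicate 2 (adjusted p = 0.0516). With all 28 libraries, C3, Lcn2 and Tslp were not called.

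Of 22 macrophage markers tested, 17 rose at D4 and 3 at D7, where 1 fell, against 26.5%, 30.2% and 26.9% of all genes. Of these markers, 5 had a lower response at D7, against 6.24% of all genes (median difference -0.71). Their summed level was 185, 184 and 181 CPM in D4 shCtrl, 289, 288 and 307 in D4 shUbc9, 208, 190 and 323 in D7 shCtrl and 251, 204 and 225 in D7 shUbc9. All 6 defining markers had counts, at up to 1.9 CPM for Spi1, 4.87 for Ptprc, 8.08 for Cd68, 12.9 for Itgam, 18.7 for Csf1r and 24.6 for Adgre1. Their part in the inflammatory result was not tested. Csf1r, the receptor for the macrophage growth factor, stood at 11.8, 10.1 and 10.8 CPM in D4 shCtrl and 15.9, 16 and 14.7 in D4 shUbc9. D7 shCtrl held 14.1, 12.3 and 18.7 CPM and D7 shUbc9 13.6, 11.4 and 12.1. There was no overlap at D4 and overlap at D7 (-0.78 ± 0.18 (adjusted p = 0.0147)). Mrc1, the mannose receptor, stood at 5.11, 5.34 and 5.5 CPM in D4 shCtrl and 12.7, 12.8 and 12.8 in D4 shUbc9. D7 shCtrl held 6.33, 4.94 and 10.8 CPM and D7 shUbc9 8.47, 5.7 and 6.11. It rose at D4 alone (-1.34 ± 0.31 (adjusted p = 0.0131)). Cd14, a co-receptor for bacterial lipopolysaccharide, stood at 7.96, 8.52 and 8.12 CPM in D4 shCtrl and 12.9, 11.5 and 13.8 in D4 shUbc9. D7 shCtrl held 16.4, 17.2 and 16.6 CPM and D7 shUbc9 10.8, 9.37 and 9.72. It rose at D4 and fell at D7, with no overlap (-1.38 ± 0.13 (adjusted p = 4.82e-05)). D7 shCtrl replicate 3 was the highest of its group for Csf1r and Mrc1. Neither of these was called with all 28 libraries. The count of 5 was 10 without D7 shCtrl replicate 2 or D7 shUbc9 replicate 1, and 3 without any one of the 3 D4 shCtrl libraries, D4 shUbc9 replicate 3, or D7 shUbc9 replicate 2 or 3.

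Proteases and their inhibitors included 9 lower and 1 higher response among 27 genes, against 6.24% and 6.04% of all genes (median difference -0.31). Adamts5, a protease of cartilage proteoglycans, stood at 285, 240 and 276 CPM in D4 shCtrl and 177, 183 and 151 in D4 shUbc9. D7 shCtrl held 421, 360 and 475 CPM and D7 shUbc9 117, 131 and 115. Its groups were apart on both days (-1.14 ± 0.15 (adjusted p = 0.000386)). Timp3, an inhibitor of metalloproteinases, stood at 1040, 919 and 907 CPM in D4 shCtrl and 1080, 1040 and 1020 in D4 shUbc9. D7 shCtrl held 1350, 1290 and 1480 CPM and D7 shUbc9 944, 919 and 854. There was overlap at D4 alone (-0.73 ± 0.11 (adjusted p = 0.00109)). Wfdc2, a secreted protein of the protease inhibitor family made by epithelia, went the other way and stood at 1.92, 2.14 and 2.14 CPM in D4 shCtrl and 2.93, 3.04 and 2.93 in D4 shUbc9. D7 shCtrl held 4.62, 4.83 and 3.92 CPM and D7 shUbc9 18.8, 19.3 and 20.8. It rose on both days, farther at D7 (1.61 ± 0.15 (adjusted p = 4.78e-05)). Adamts5 and Timp3 were not called with all 28 libraries. The count of 9 was 4 without D4 shCtrl replicate 1 or D7 shCtrl replicate 2, and 5 without D4 shCtrl replicate 2 or 3 or D7 shCtrl replicate 3.

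Of 33 p53 targets and senescence genes, 3 had a lower response at D7 and 0 a higher one, against 6.24% and 6.04% of all genes, and their median difference of -0.04 turned to 0.07 with library sizes alone. Mdm2, the ubiquitin ligase that restrains p53, stood at 250, 243 and 256 CPM in D4 shCtrl and 440, 430 and 447 in D4 shUbc9. D7 shCtrl held 202, 203 and 202 CPM and D7 shUbc9 271, 235 and 248. Its rise was 1.76-fold at D4 and 1.24-fold at D7, with no overlap (-0.5 ± 0.0847 (adjusted p = 0.00187)). The death receptor gene Fas stood at 53.4, 54 and 53 CPM in D4 shCtrl and 72.4, 71.2 and 87.9 in D4 shUbc9. D7 shCtrl held 73.2, 78.3 and 70.4 CPM and D7 shUbc9 65.7, 51.5 and 59.5. It turned from a rise to a fall (-0.86 ± 0.14 (adjusted p = 0.00122)). Rrm2b, a ribonucleotide reductase subunit, rose at D4 alone (-0.48 ± 0.12 (adjusted p = 0.023)), lost without D4 shCtrl replicate 2 (adjusted p = 0.0508), D4 shCtrl replicate 3 (0.104), D7 shCtrl replicate 1 (0.0952), D7 shCtrl replicate 2 (0.055) or D7 shCtrl replicate 3 (0.0628). Mdm2 and Rrm2b were not called with all 28 libraries, nor was Rrm2b with library sizes alone. Without D7 shUbc9 replicate 1, 6 had a lower response and 3 a higher one.

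Imprinted genes, which are expressed from 1 parental copy, had 10 lower and 0 higher responses among 28, against 6.24% and 6.04% of all genes. Their median difference was -0.2, or -0.08 with library sizes alone, where 5 were called lower. The count was 4 without D4 shCtrl replicate 3, 5 without D7 shUbc9 replicate 3, and 6 without D4 shCtrl replicate 1 or D7 shCtrl replicate 1 or 2. Mest, expressed from the paternal copy, stood at 358, 326 and 349 CPM in D4 shCtrl and 170, 170 and 163 in D4 shUbc9. D7 shCtrl held 240, 216 and 235 CPM and D7 shUbc9 76, 83.2 and 72.5. The responses differed by -0.54 ± 0.0926 (adjusted p = 0.00207). The maternally expressed noncoding RNA gene Rian stood at 705, 700 and 728 CPM in D4 shCtrl and 595, 578 and 627 in D4 shUbc9. D7 shCtrl held 629, 634 and 658 CPM and D7 shUbc9 431, 355 and 372. The responses differed by -0.49 ± 0.11 (adjusted p = 0.00945). Ndn, a growth suppressor, fell at D7 alone (-0.37 ± 0.0791 (adjusted p = 0.00901)), a call lost without D4 shCtrl replicate 1 (adjusted p = 0.068), D4 shCtrl replicate 3 (0.069), D7 shCtrl replicate 1 (0.0543) or D7 shCtrl replicate 2 (0.0549). All 3 were lost with all 28 libraries, and Rian and Ndn with library sizes alone as well.

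Of the 10 largest falls, 9 were of genes that rose in controls from D4 to D7. Fmo2, a flavin monooxygenase gene, stood at 25.7, 27.1 and 27.7 CPM in D4 shCtrl and 6.44, 6.26 and 7.16 in D4 shUbc9. D7 shCtrl held 78.1, 81.2 and 75.4 CPM and D7 shUbc9 6.5, 5.47 and 5.72. The controls were higher at D7 than at D4, while the depleted libraries lay between 5.47 and 7.16 CPM on both days, and the difference was -1.71 ± 0.11 (adjusted p = 1.01e-05). Reg1, a secreted lectin, stood at 5.02, 6.47 and 6.03 CPM in D4 shCtrl and 3.82, 3.9 and 5.22 in D4 shUbc9. D7 shCtrl held 28.2, 32.7 and 28.3 CPM and D7 shUbc9 3.93, 2.52 and 2.91. The libraries overlapped at D4 alone (-2.8 ± 0.23 (adjusted p = 3.24e-05)). Cmah, an enzyme of sialic acid modification, stood at 5.62, 5.43 and 5.42 CPM in D4 shCtrl and 6.84, 7.56 and 5.44 in D4 shUbc9. D7 shCtrl held 31.5, 25.4 and 32.6 CPM and D7 shUbc9 9.13, 7.82 and 7.55. It likewise overlapped at D4 and not at D7 (-2.15 ± 0.19 (adjusted p = 4.34e-05)). Cygb, an oxygen-binding globin, stood at 5.49, 6.76 and 6.83 CPM in D4 shCtrl and 3.19, 2.74 and 3.15 in D4 shUbc9. D7 shCtrl held 24.4, 23.7 and 22.7 CPM and D7 shUbc9 4.4, 3.23 and 2.74. It fell on both days (-1.69 ± 0.21 (adjusted p = 0.000248)). Slc10a6, a transporter of steroid sulfates, stood at 2.34, 2.14 and 2.8 CPM in D4 shCtrl and 4.45, 3.98 and 5.61 in D4 shUbc9. D7 shCtrl held 7.81, 7.73 and 8.25 CPM and D7 shUbc9 4.62, 3.56 and 4.31. It turned from a rise to a fall (-1.86 ± 0.21 (adjusted p = 0.00014)).

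The remaining large falls encode channels and receptors. Gabra3, a subunit of the GABA receptor, stood at 13.6, 11.6 and 15.4 CPM in D4 shCtrl and 2.77, 3.07 and 3.87 in D4 shUbc9. D7 shCtrl held 24.6, 23.7 and 28.3 CPM and D7 shUbc9 1.69, 1.83 and 1.54. Kcnj8, an inward rectifier potassium channel, stood at 8.55, 9.83 and 8.6 CPM in D4 shCtrl and 4.38, 3.98 and 4.12 in D4 shUbc9. D7 shCtrl held 21, 22.4 and 20.3 CPM and D7 shUbc9 3.5, 2.62 and 2.87. The receptor phosphatase gene Ptprz1 stood at 10.5, 10 and 9.21 CPM in D4 shCtrl and 6.77, 7.57 and 4.64 in D4 shUbc9. D7 shCtrl held 22.3, 14.6 and 26.1 CPM and D7 shUbc9 3.8, 3.28 and 3.59. All 3 fell on both days with no overlap, and the differences were -1.85 ± 0.20 (adjusted p = 0.000124), -1.71 ± 0.15 (adjusted p = 4.78e-05) and -1.92 ± 0.29 (adjusted p = 0.00088). Clca3a2, a regulator of chloride channels, and Olfr1033, an odorant receptor gene, fell 2.08-fold and 2.48-fold at D4 and 10.1-fold and 9.13-fold at D7 (-2.28 ± 0.25 (adjusted p = 0.000107) and -1.88 ± 0.24 (adjusted p = 0.000324)).

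Cartilage genes, 18 tested, had 3 lower responses and 1 higher, against 6.24% and 6.04% of all genes. The count of higher responses was 3 without D7 shCtrl replicate 3 or with library sizes alone. Comp, a matrix protein that binds collagen, stood at 13.4, 12.7 and 13.6 CPM in D4 shCtrl and 6.33, 6.08 and 5.83 in D4 shUbc9. D7 shCtrl held 40, 34.9 and 34.5 CPM and D7 shUbc9 7.87, 9.47 and 7.83. It fell on both days, farther at D7 (-1 ± 0.13 (adjusted p = 0.000405)). Matn4, a matrilin, rose 1.35-fold at D4 and fell 1.62-fold at D7 (-1.13 ± 0.18 (adjusted p = 0.00122)). The proteoglycan gene Cspg4 fell at D4 alone (0.81 ± 0.20 (adjusted p = 0.0166)). Sox5, a factor of cartilage cells, fell on both days, with a difference of -0.69 ± 0.19 (adjusted p = 0.0289). Its call ended without D4 shCtrl replicate 2 (adjusted p = 0.064), D4 shUbc9 replicate 2 (0.072), D4 shUbc9 replicate 3 (0.0506), D7 shCtrl replicate 1 (0.0651), D7 shCtrl replicate 3 (0.0645) or D7 shUbc9 replicate 3 (0.0536). None of the 4 was called with all 28 libraries, nor Sox5 with library sizes alone.

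Among metabolic genes, the 3 transporters of the glycolysis list had a higher response at D7 and the 15 enzymes gave no call. Of all genes, 6.04% had a higher and 6.24% a lower response, so few calls are to be looked for among 15 genes. Slc2a3, a glucose transporter, stood at 8.89, 11.2 and 8.81 CPM in D4 shCtrl and 17.4, 17.4 and 15.4 in D4 shUbc9. D7 shCtrl held 10.5, 14.4 and 7.56 CPM and D7 shUbc9 53.5, 58 and 59.3. It rose on both days (1.59 ± 0.24 (adjusted p = 0.000836)). The lactate exporter gene Slc16a3 turned from a fall of 1.59-fold to a rise of 1.82-fold (1.53 ± 0.19 (adjusted p = 0.000277), not called with all 28 libraries). Slc2a1, the widespread glucose transporter, fell at D4 alone (0.59 ± 0.0966 (adjusted p = 0.00165)). By edgeR, 0 members were called among 24 nuclear genes of oxidative phosphorylation, 23 ribosomal protein genes, 21 genes of the integrated stress response and 16 genes of H3K9 methylation. At an unadjusted p under 0.05 by edgeR these lists held 1, 0, 5 and 6 genes, against 4722 of all 17676 genes tested. The 4 lists are thus not alike beside that share. The DESeq2 test called 1 gene, in the H3K9 list. With library sizes alone, edgeR called 2 genes of the stress response and 1 of the H3K9 list. Without D7 shUbc9 replicate 1 it called 3 genes of the stress response and 2 of the H3K9 list higher, and without D7 shCtrl replicate 2 it called 1 gene of oxidative phosphorylation higher. Of 42 interferon response genes 2 had a lower and 0 a higher response, against 6.24% and 6.04% of all genes. The 2 were the receptor subunits Ifnar1 and Ifnar2, named after their values were seen. With library sizes alone 0 were lower, and without D7 shCtrl replicate 2, 6 were higher. The summed level of the interferon list was 5860 CPM in that library, against 3940 and 3570 CPM in D7 shCtrl replicates 1 and 3.

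Lists of other lineages also held called members. Among 13 neural genes tested, 3 had a higher and 1 a lower response, against 6.04% and 6.24% of all genes. Stmn2, a microtubule regulator of neurons, stood at 65.4, 68.3 and 65.4 CPM in D4 shCtrl and 82.9, 76 and 98.9 in D4 shUbc9. D7 shCtrl held 39.3, 40.6 and 39.5 CPM and D7 shUbc9 102, 90.6 and 89.3. Both responses were rises (0.87 ± 0.12 (adjusted p = 0.000654)). Nes, an intermediate filament of progenitors, rose 2.83-fold and 4.25-fold (0.59 ± 0.11 (adjusted p = 0.00385)). Dcx, a microtubule protein of young neurons, turned from a fall to a rise (1.66 ± 0.28 (adjusted p = 0.00181)). The tubulin gene Tubb3 rose less at D7 (-0.42 ± 0.10 (adjusted p = 0.015)), lost without D4 shCtrl replicate 1 (adjusted p = 0.0848), D4 shCtrl replicate 3 (0.0905), D7 shCtrl replicate 1 (0.0794) or D7 shCtrl replicate 2 (0.0718). Of the defining neural markers, Pax6 and Olig2 stayed at or under 0.611 CPM in every library, while Sox1 stood at 1.2, 2.5 and 1.74 CPM in D7 shUbc9 and at most at 0.387 CPM at D4, a gene whose difference was not called. In striated muscle, 3 of 12 tested genes had a higher response and 0 a lower one, against 6.04% and 6.24% of all genes. Mylpf, a myosin light chain, held 3.46, 4.53 and 3.06 CPM in D7 shCtrl and 31.5, 31.9 and 33.4 in D7 shUbc9 (2.1 ± 0.31 (adjusted p = 0.00081)). The others were the giant sarcomere protein gene Ttn (1.15 ± 0.20 (adjusted p = 0.00204)) and the troponin gene Tnnt2 (1.14 ± 0.26 (adjusted p = 0.013)). The last call ended without D4 shCtrl replicate 2 (adjusted p = 0.0545). The muscle regulators Myod1, Myog, Myf5 and Myf6 did not exceed 0.118 CPM.

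Of 12 trophoblast genes tested, 3, all of them transcription factors, had a higher response and 0 a lower one, against 6.04% and 6.24% of all genes. The median difference was 1.09. Tead4 stood at 12.7, 11.5 and 12.4 CPM in D4 shCtrl and 20.5, 21.7 and 21.6 in D4 shUbc9. D7 shCtrl held 10, 9.92 and 9 CPM and D7 shUbc9 26.7, 38.2 and 33.8. Both responses were rises (0.96 ± 0.16 (adjusted p = 0.00173)). Gata2 turned from a fall to a rise (1.23 ± 0.28 (adjusted p = 0.0127)). Elf5 rose at D7 alone (2.16 ± 0.58 (adjusted p = 0.0286)), and its call ended without D4 shCtrl replicate 1 (adjusted p = 0.0744), D4 shCtrl replicate 3 (0.127), D4 shUbc9 replicate 2 (0.0511), D7 shCtrl replicate 1 (0.0571), D7 shUbc9 replicate 2 (0.0515) or D7 shUbc9 replicate 3 (0.0568). The Elf5 call also ended with replicate number as a block in the fit (adjusted p = 0.0562). Of the other defining factors, Cdx2 reached 0.174 CPM and Eomes 0.979 CPM. The factor Tfap2c, named after its values were seen, stood at 0.624, 1.15 and 0.231 CPM in D7 shCtrl and 7.35, 9.37 and 9.13 in D7 shUbc9, and its responses at D4 and D7 were not called as different (difference -0.08). In the endothelial list, 2 of 11 tested genes had a higher and 2 a lower response, against 6.04% and 6.24% of all genes. The adhesion gene Pecam1 stood at 0.426, 0.333 and 0.187 CPM in D4 shCtrl and 0.398, 0.571 and 0.525 in D4 shUbc9. D7 shCtrl held 0.785, 1.27 and 0.808 CPM and D7 shUbc9 6.86, 7.05 and 6.52. It rose at D7 alone (2.09 ± 0.38 (adjusted p = 0.00329)). The receptor gene Tie1 also rose at D7 alone (1.45 ± 0.37 (adjusted p = 0.0221)), a call lost without D4 shCtrl replicate 2 (adjusted p = 0.0931), D4 shUbc9 replicate 1 (0.0528), D4 shUbc9 replicate 2 (0.0562) or D7 shUbc9 replicate 3 (0.0548). The receptor genes Tek (-0.69 ± 0.0878 (adjusted p = 0.000286)) and Flt1 (-0.97 ± 0.15 (adjusted p = 0.00112)) had lower responses. Of the other defining endothelial genes, Cdh5 did not exceed 0.437 CPM, and Kdr was lower after depletion on both days. Kdr stood at 3.57, 3.12 and 2.99 CPM in D4 shCtrl and 2.18, 2.44 and 1.99 in D4 shUbc9. D7 shCtrl held 2.19, 2.99 and 2.31 CPM and D7 shUbc9 1.42, 1.09 and 1.85. Neither gene was called in the difference. Of the genes in these lineage lists, Tek, Flt1, Tie1, Tead4, Gata2, Elf5, Ttn, Nes and Tubb3 were not called with all 28 libraries, and Tubb3 was lost with library sizes alone.

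The fit of all 28 libraries takes the 4 group means from the same 12 libraries, and mainly its estimate of spread differs. That it turned the sign of 0 of the called genes was therefore nearly fixed in advance. It called fewer members of the lists. It called 13 epithelial, 4 keratinocyte and 10 mitosis genes higher, with 3 pluripotency factors and 3 other genes of pluripotent cells. It called 2 inflammatory genes, 1 macrophage marker, 1 smooth muscle gene and 1 p53 target lower, and 0 imprinted or DNA replication genes. In the direction in which edgeR called 0 members with 12 libraries, an unadjusted p under 0.05 was reached by 0 mitosis genes, 1 DNA replication gene, 0 pluripotency factors, 0 smooth muscle genes, 2 imprinted genes, 1 macrophage marker and 1 p53 target, and the DESeq2 test called 0 in each.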

How the data were processed

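RNA was extracted with Trizol, cleaned on RNeasy columns and made into libraries with the TruSeq Stranded Total RNA kit after Ribo-Zero Gold depletion of ribosomal RNA, per the labels' protocols. The authors deposited 1 table of raw read counts per gene and repeat family, made on the build mm9, with STAR (version 2.5.0a), featureCounts and DESeq2 among the tools, per the submitters' processing notes. Not given in the sources used here are the strand setting of the counting, the handling of reads with several matches and the version of the annotation. The peak lists of the series were not used. The table held 26301 genes, of which 24191 were given a symbol by Entrez ID from RefSeq (GRCm38.p6, names and promoters only), and 799 repeat families, which were left out of library sizes and tests.

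Counts of the 12 libraries were analysed with edgeR 4.0.16 (R 4.3.3). Genes were kept by filterByExpr with a minimum count of 10, leaving 17676, scaled by TMM, and fitted with 4 group means. The quasi-likelihood F test was applied to the difference of responses and to each response and time course, two-sided, with Benjamini-Hochberg adjustment over all genes tested and a threshold of 0.05. Depth was 19.8 to 56.6 M gene counts per library. Lists are described by counts of called members and medians, with no test of their own. Named genes were the 10 largest rises and falls with a highest group mean of at least 5 CPM and 10 counts in every group, predicted genes left out, the 5 genes of smallest p with under 10 counts in a group and a highest group mean of at least 1 CPM, the 6 largest differences with opposite responses at 5 CPM or more, the 3 members of smallest p per direction of each list with at least 3 called, and the cassette factors; the targeted gene and a few others are not reported here. The members and lists were chosen with earlier results of these data known. The alternatives were library sizes alone, DESeq2 1.42.0 size factors or test, other count filters, robust dispersion, all 28 RNA libraries, a replicate block and leaving out each library. The scripts were tested on simulated data.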

Additional observations from a re-analysis of the deposited data

Results flagged for a closer look

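The response to Ubc9 depletion differed between the 2 days in 2171 genes by the edgeR test of the difference itself, and 105 of these are named, with the log2 difference (D7 response minus D4 response) in brackets. Among the largest differences, the response was higher at D7 for Alox15 (3.47), Clec2i (4.05), Crct1 (3.24), Cyp2b23 (3.74), H2ac12 (3.35), H2ac13 (2.57), H2ac8 (3.01), Ildr1 (2.69), Klk1 (2.93), Klk6 (4.06), Lefty2 (2.59), Rdh16 (4.09), Scand1 (2.94) and Smyd1 (2.58), and it was lower at D7 for Clca3a2 (-2.28), Cmah (-2.15), Cygb (-1.69), Fmo2 (-1.71), Gabra3 (-1.85), Kcnj8 (-1.71), Olfr1033 (-1.88), Ptprz1 (-1.92), Reg1 (-2.8) and Slc10a6 (-1.86). Among genes with opposite responses, the response was higher at D7 for Aldh3b2 (2.18), Dsg2 (2.1), Elf3 (1.97), Krt18 (2.29) and Spink5 (2.43). In epithelial and keratinocyte genes, the response was higher at D7 for Cdh1 (1.29), Klk10 (1.49), Krt14 (1.55), Krt8 (1.69), Rab25 (2.44) and Tgm3 (0.84), and it was lower at D7 for Cdh3 (-1.03) and Sbsn (-0.46). In genes of the cell cycle and of DNA methylation, the response was higher at D7 for Ccna2 (0.69), Cenpa (1.23), Dnmt1 (0.36), Dnmt3b (1.47), Kif11 (0.88), Nek2 (0.97), Rfc5 (0.54), Tk1 (0.63) and Uhrf1 (0.56). In pluripotency genes and the cassette, the response was higher at D7 for Gdf3 (1.5), Mybl2 (1.09), Pou5f1 (0.72), Prdm1 (1.69) and Sall1 (1.68), and it was lower at D7 for Icam1 (-0.64). In matrix, contractile and cartilage genes, the response was higher at D7 for Cspg4 (0.81), Mylpf (2.1), Tnnt2 (1.14) and Ttn (1.15), and it was lower at D7 for Col14a1 (-0.98), Comp (-1), Loxl2 (-0.81), Matn4 (-1.13), Myh11 (-1.56), Myl9 (-0.76), P4ha2 (-0.6), Sox5 (-0.69) and Tagln (-0.91). In TGF-beta, mesenchymal and protease genes, the response was higher at D7 for Foxd1 (2.43), Id1 (0.91), Msx1 (1.35), Skil (0.33), Twist2 (1.11) and Wfdc2 (1.61), and it was lower at D7 for Adamts5 (-1.14), Ebf1 (-0.52), Tgfb2 (-0.6), Tgfbr1 (-0.47), Timp3 (-0.73), Zeb1 (-0.36) and Zeb2 (-0.61). In inflammatory, macrophage and p53 genes, the response was higher at D7 for Tslp (1.35), and it was lower at D7 for C3 (-1.4), Cd14 (-1.38), Csf1r (-0.78), Fas (-0.86), Il33 (-1.41), Lcn2 (-1.38), Mdm2 (-0.5), Mrc1 (-1.34) and Rrm2b (-0.48). In imprinted genes and transporters, the response was higher at D7 for Slc16a3 (1.53), Slc2a1 (0.59) and Slc2a3 (1.59), and it was lower at D7 for Mest (-0.54), Ndn (-0.37) and Rian (-0.49). In markers of other lineages, the response was higher at D7 for Dcx (1.66), Elf5 (2.16), Gata2 (1.23), Nes (0.59), Pecam1 (2.09), Stmn2 (0.87), Tead4 (0.96) and Tie1 (1.45), and it was lower at D7 for Flt1 (-0.97), Tek (-0.69) and Tubb3 (-0.42).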

How the results depend on the processing

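Against 2171 genes called in the difference of responses, 1068 higher and 1103 lower, the fit of all 28 RNA libraries called 347, 249 and 98, and it called 4190 genes at D4, 6127 at D7 and 24 with opposite responses, against 8836, 10088 and 175; the cause was not tested. With library sizes alone 490 genes were called lower. Leaving out 1 library at a time gave 1386 to 2866 genes called, 735 to 1482 higher, 576 to 1384 lower, 7153 to 9170 at D4, 8544 to 10337 at D7 and 114 to 276 with opposite responses. Pairing by replicate number was not seen across the 4 groups: 2 of 18 same-numbered pairs had a correlation of deviations over 0.1 (range -0.34 to 0.4). On average over the other groups, 0 of 12 libraries correlated best with its own number. The 2 pairs were D4 and D7 shCtrl replicate 2 (0.4) and D4 and D7 shUbc9 replicate 2 (0.24). Pairing of the days within a hairpin was not tested separately. With the replicate block 1689 genes were called, 826 higher and 863 lower, with 8275 at D4, 9551 at D7 and 154 opposite. Of the 105 named genes called, 85 were called whichever library was left out, 57 were not called with all 28 libraries, 7 with library sizes alone, 5 with the replicate block (Elf5, Msx1, Pou5f1, Scand1 and Zeb1) and 0 with the DESeq2 test, and 0 changed direction. The alternative fits share all or most of the 12 libraries, so a change of direction was unlikely from the start. With 3 libraries a group, genes of under 10 counts in a group have fitted differences of low precision.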
